A study of Drosophila melanogaster
Mus musculus with 6 samples.

Results

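The regions described here are the Polycomb bins that lost H3K27me3 when K36M histone was expressed. They are the 10 kb bins on chromosomes 1 to 19 that held at least 40 scaled reads of H3K27me3 in wild-type cells and less than 0.67 (2/3, to 3 decimals in the rule) of their own wild-type value in K36M cells. The rule picked 1119 of 232039 autosomal 10 kb bins (0.482%), out of 253926 intervals in the whole table. Both H3K27me3 libraries entered the rule, so the fall of H3K27me3 in these bins is a description and not a finding. H3K36me2, position along the genome and the values of neighbouring bins did not enter it.

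The cells were C3H10T1/2, a mouse line of mesenchymal progenitors from C3H embryos, at passage 10 to 15. One line stably expressed FLAG-HA-tagged wild-type H3.1 (WT) and the other the tagged K36M mutant of H3.1, in which methionine stands in place of the lysine that carries H3K36 methylation. Both lines still had their own histone genes, and the labels do not say whether either is a clone. Native chromatin was cut to mononucleosomes and precipitated for H3K36me2 or H3K27me3, with Drosophila S2 chromatin added as an external standard. A scaled read is a sequenced read multiplied by the factor of its library. There was 1 library per mark and line, so the lines could not be compared by a test and no p-value is given. Every interval is a 95% interval, and those of ratios and folds cover counting error only. Intervals of shares treat bins as independent, and they are too narrow because neighbouring bins are not. Total reads ran from 29817968 to 59618463 per library.

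H3K27me3 is written by Polycomb repressive complex 2, PRC2, and marks silent developmental genes in broad domains. H3K36me2 is written mainly by the NSD enzymes over active and intergenic chromatin, and PRC2 works poorly on histone tails that carry it. K36M histone blocks enzymes that methylate this lysine, and is known to let H3K27me3 spread into chromatin that H3K36me2 had covered.

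With the deposited factors, loss was the exception among strong Polycomb bins. Of the 19079 autosomal bins at or above the floor of 40 in WT, 5.87% fell below 0.67 of WT (5.54 to 6.21), and these are the lost bins. The other 17960 are called held bins below. Over all autosomal bins with any WT signal, 0.887% fell that far. With each library scaled to its own total, 92.7% of the strong bins would have met the rule (17694 bins), so the rarity of loss rests on those factors. In the lost bins the median H3K27me3 was 65.3 scaled reads per bin in WT (interquartile range 51.1 to 84.9) and 36.9 in K36M (28.3 to 49.9). In held bins it was 56.0 in WT and 66.7 in K36M. The lost bins thus started somewhat above the held bins and ended far below them. Summed over all lost bins, H3K27me3 was 1.75-fold lower in K36M (1.74 to 1.76). They carried 2.59% of the autosomal H3K27me3 signal in WT and 0.578% in K36M.

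**Figure D1:**
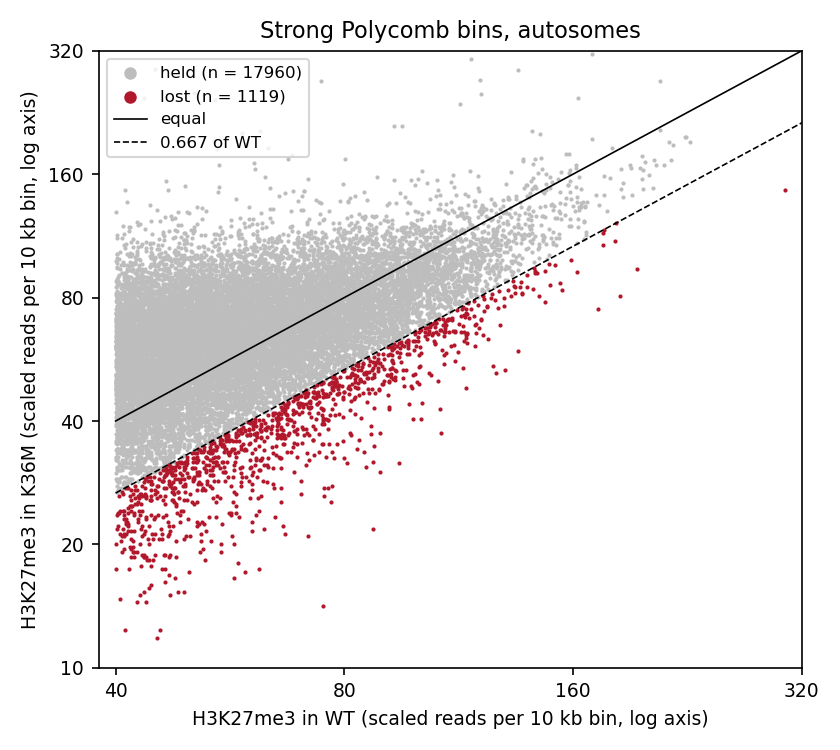
H3K27me3 in WT (x axis) and K36M (y axis) for strong Polycomb bins, in scaled reads per 10 kb bin on log axes; each point is 1 bin, 18 held bins beyond 320 are not drawn. The 1119 lost bins lie under the dashed line by construction, and most lie close to it.

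Most losses were partial. The median ratio of K36M to WT over lost bins was 0.592 (interquartile range 0.522 to 0.633). A ratio under 0.5 was seen in 224 bins (20.0%), and 17 bins (1.52%) had a ratio under 0.333. The lowest ratio was on chromosome 15 at 56030001 to 56040000 (mm9), a bin picked after its value was seen, where H3K27me3 was 75.0 scaled reads in WT and 14.2 in K36M, 5.30-fold lower (3.95 to 7.25). The median lost bin rested on 599 reads in WT and 125 in K36M. The counting interval of the ratio lay below 1 in all 1119 bins and below 0.67 in 377 (33.7%). The other 742 cannot be placed clearly on one side of the threshold at this depth. At the threshold itself, bins on chromosomes 7, 12 and 3 had ratios of 0.66696, 0.66673 and 0.66655 just inside it. Bins on chromosomes 13, 5 and 17 had 0.66703, 0.66704 and 0.66730 just outside. At the floor, the lowest WT values inside were 40.003, 40.003 and 40.112, and those of the nearest bins outside were all 39.894.

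The K36M value helped to choose the lost bins, so their place in that library is a description that the rule in part fixes. Ranked among all autosomal bins of the same library, which does not depend on the library factor, the median lost bin stood at percentile 97.2 in WT and at percentile 62.6 in K36M. The median held bin went from percentile 95.8 to percentile 91.2.

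H3K36me2, which the rule did not use, fell in the lost bins as it did in other Polycomb chromatin. Its median in lost bins was 66.8 scaled reads per bin in WT (interquartile range 50.2 to 92.9) and 5.69 in K36M (4.91 to 6.47). All 1119 lost bins were lower in K36M, against 98.0% of autosomal bins. A fall of at least 10-fold was seen in 724 lost bins (64.7%) and in 60.1% of held bins, against 47.8% of autosomal bins. The median ratio of K36M to WT per bin was 0.0851 in lost bins and 0.0869 in held bins, so at the level of the typical bin the relative fall of H3K36me2 did not set them apart. The WT level in lost bins lay under the autosomal median of 102, as it did in held bins, whose median was 72.5 (49.6 to 113).

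What remained of H3K36me2 in K36M was slightly less in lost bins than in held bins. The medians were 5.69 and 6.24 scaled reads per bin, which is 73 and 80 reads, and their ratio was 0.912. The ratio was under 1 on all 19 autosomes, from 0.827 on chromosome 14 to 0.985 on chromosome 3. Lost bins were also lower in 20 of 23 groups of bins matched for WT levels of both marks and holding at least 10 lost bins each, with a median ratio of 0.893 (0.814 to 1.15). A difference of 7 reads is within the counting error of any single bin, and it appears only over many bins. In WT the corresponding ratio for H3K36me2 was 0.921, and it was under 1 on 14 of 19 autosomes (0.761 to 1.25). This WT ratio turned to 1.04 with a cutoff of 0.5 and to 1.02 when the counting interval of each lost bin had to lie below the cutoff, so no direction can be given for it. Inputs were not used here, so the parts of unenriched reads and of local DNA amount in these low K36M values were not tested. No lost bin had fewer than 30 reads for H3K36me2 in K36M or fewer than 40 for H3K27me3.

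The share of strong bins that were lost was lower where K36M had more scaled reads of H3K36me2. In 5 classes of K36M H3K36me2 with about equal numbers of strong bins, lowest first, the share was 9.73% (8.79 to 10.7), 7.19%, 5.81%, 4.08% and 2.80% (2.31 to 3.37). It fell at every step. The limits between these classes were 5.15, 5.93, 6.55 and 7.41 scaled reads, around the autosomal K36M median of 6.24. The part of unenriched reads in such low values was not tested. In the same kind of classes of WT H3K36me2 the share was 5.58%, 7.01%, 7.45%, 5.66% and 3.62%, highest in the middle. Among lost bins themselves, the depth of loss showed little relation to residual H3K36me2. Spearman's rho of the H3K27me3 ratio across 1119 bins was 0.08 with K36M H3K36me2 and -0.19 with WT H3K36me2, over a range of ratios that the rule cuts off. With the K36M to WT ratio of H3K36me2 it was 0.23, and negative on 2 autosomes (-0.15 to 0.49). By WT H3K27me3, a rule variable and so only a description, the share rose from 3.96% at 40 to 50 scaled reads to 12.0% at 120 and above (9.23 to 15.2).

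**Figure D2:**
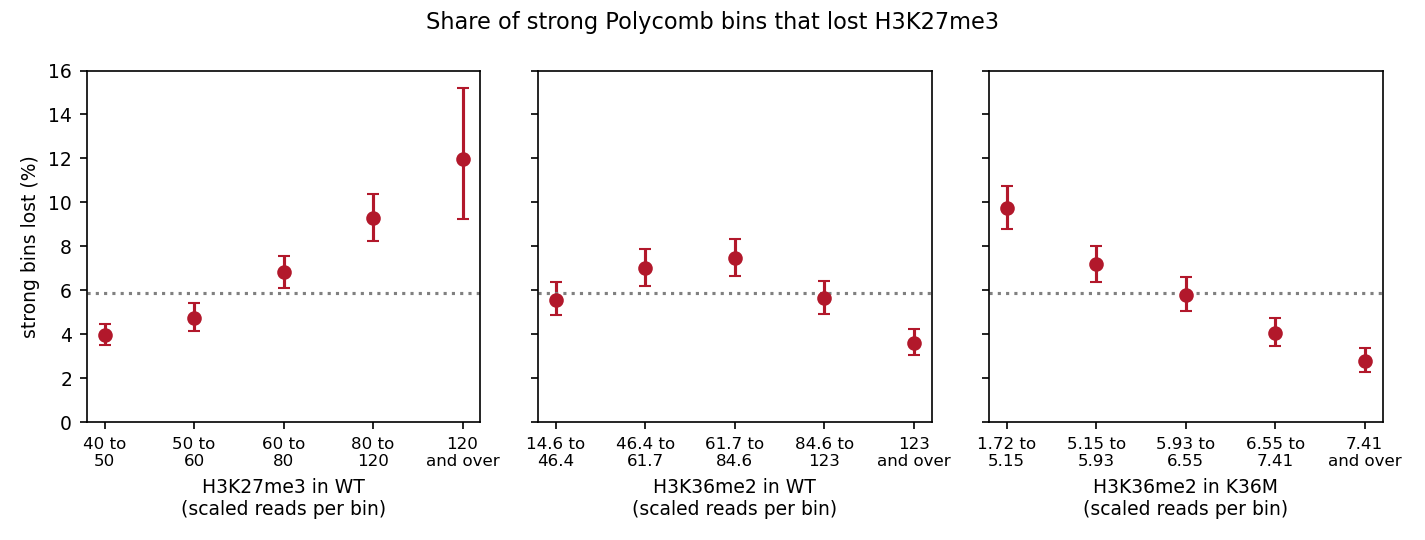
Share of strong Polycomb bins that were lost (y axis, %) by H3K27me3 in WT, H3K36me2 in WT and H3K36me2 in K36M (x axes, scaled reads per 10 kb bin). Points are shares, bars are exact 95% intervals that treat bins as independent, and the dotted line is the share over all strong bins. The share falls from 9.73% to 2.80% with rising H3K36me2 in K36M.

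Lost bins came in groups. They formed 741 runs of adjacent bins, of which 539 were 1 bin long and 82 had at least 3 bins, with 340 bins (30.4%) in the latter. A lost bin had another lost bin directly beside it in 580 cases (51.8%). Of the 1277 strong bins directly beside a lost bin, each counted once, 45.4% were lost, against 3.72% of the 15097 beside a held bin and 5.87% of strong bins in all. When lost bins up to 100 kb apart were joined, a distance chosen after seeing the data, there were 442 clusters. In 16 of these lay 10 or more lost bins, 207 in all (18.5%). Domains here are unbroken runs of bins with at least 20 scaled reads of H3K27me3 in WT. Of 4310 such domains that held a strong bin, 513 had a lost bin (11.9%). Every strong bin was lost in 125 of them, 46 of which had more than 1 strong bin. Lost and held bins sat in domains of like length, with medians of 130 and 120 kb, and 15.0% and 18.3% of them lay at a domain's end. Loss was thus seen in domain interiors as well as at borders.

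Across the 82 runs of at least 3 lost bins, the H3K27me3 peak of WT was nearly flat in K36M. At the centre of the runs the median went from 66.4 to 33.9 scaled reads per bin. At 250 kb on either side it went the other way, from 6.92 to 29.9 and from 8.07 to 27.7. In the 1893 held runs of 3 to 10 bins, the centre went from 59.7 to 67.3 and the bins at 250 kb from 9.05 to 37.8 and from 7.85 to 37.5. Each run was then divided by the mean of its surroundings, 110 to 300 kb away on both sides and in the same library, a ratio that is free of the library factors. For lost runs this ratio had a median of 3.86 in WT (interquartile range 2.44 to 6.10) and 1.17 in K36M (0.970 to 1.37). For held runs it was 3.27 (2.17 to 5.23) and 1.66 (1.35 to 2.05). In K36M, 24 of 82 lost runs were at or under the level around them (29.3%), against 72 of 1893 held runs (3.80%). Choosing bins for a low K36M value pushes this ratio down. The 82 runs lay in 64 clusters, so some share their surroundings.

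**Figure D3:**
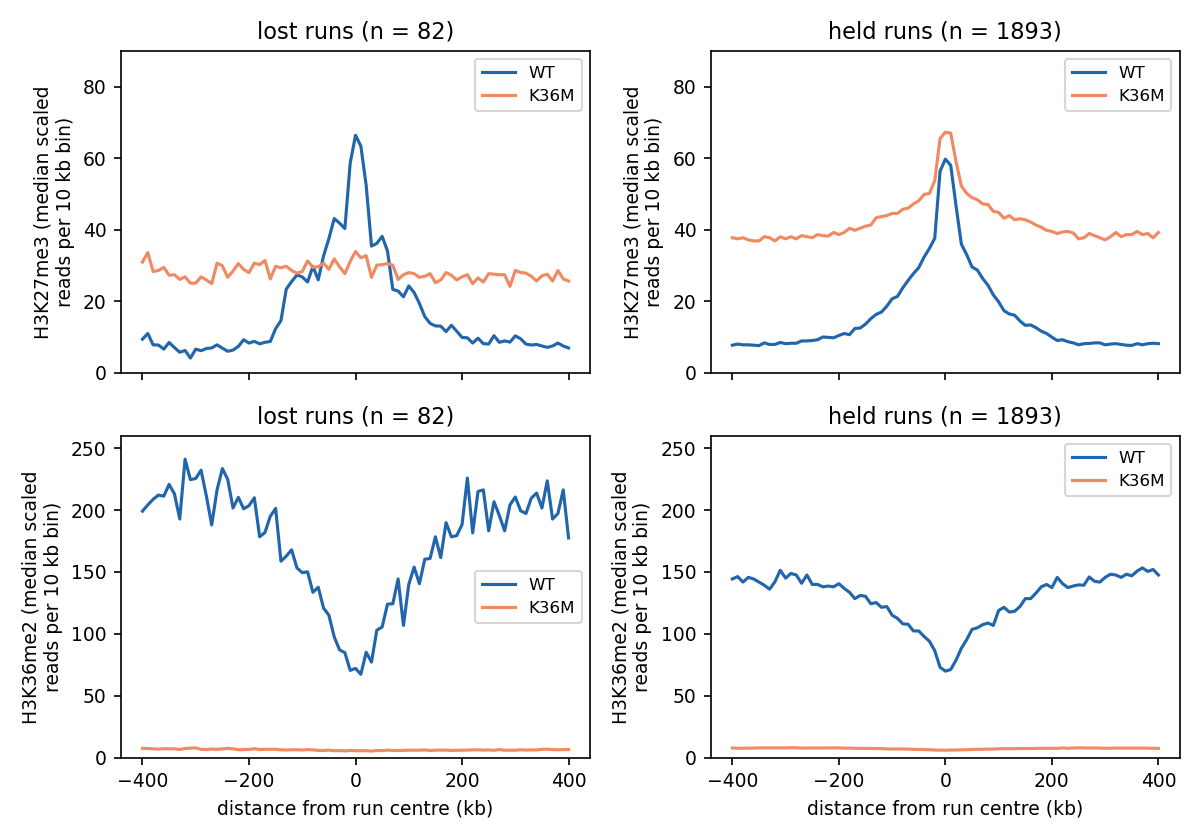
Median H3K27me3 (top) and H3K36me2 (bottom) in scaled reads per 10 kb bin (y axis) by distance from the run centre in kb (x axis), for 82 runs of lost bins (left) and 1893 runs of held bins (right), WT in blue and K36M in orange. In lost runs the WT peak of 66.4 is replaced by a level close to that of the surroundings.

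The surroundings differed as well. Apart from other lost bins that lay in them, they were not chosen by their own K36M values. They were chosen through the K36M H3K27me3 of the runs they surround, in the same library, and neighbouring bins are not independent. Around lost runs WT H3K36me2 had a median of 199 scaled reads per bin (interquartile range 163 to 245), and around held runs 159 (120 to 206). In K36M the order was the opposite, with 9.72 (6.95 to 18.9) around lost runs and 20.7 (12.7 to 29.9) around held runs. These are means over the bins around each run, and bins with much residual H3K36me2 carry the K36M gap. With the median bin around each run, a measure added after seeing the data, the K36M values were 6.63 (5.87 to 7.67) and 7.80 (6.55 to 12.2), and the WT values 173 and 131. H3K27me3 around the runs was alike in WT, at 18.3 and 18.5, and in K36M reached 29.7 (24.4 to 36.4) around lost runs and 40.8 (32.0 to 50.0) around held runs. With bins at or above the floor left out of the surroundings, the K36M medians were 25.4 and 34.1 for H3K27me3 and 10.7 and 23.8 for H3K36me2. Lost runs thus lay in chromatin that had more H3K36me2 in WT and somewhat less of it in K36M. That chromatin also had less H3K27me3 in K36M, which the rule in part builds in. The interquartile ranges overlap for each.

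Closer by, the same held for bins under the floor, which cannot be members. They were still grouped by the K36M H3K27me3 of bins near them, in the same library, and neighbouring bins are not independent. Lower K36M values near lost bins are thus in part built in by the rule. The 6747 such bins within 100 kb of a lost bin went from a mean of 15.4 to 26.0 scaled reads of H3K27me3, a ratio of 1.68 (1.677 to 1.688). The 51498 within 100 kb of held bins only went from 14.5 to 36.9, a ratio of 2.54. The ratio near lost bins was 0.662 of that near held bins, a value in which the library factors cancel. Scaled to library totals, the ratio near lost bins was 0.664, a fall, and that near held bins 1.00, so the direction of change near lost bins rests on the deposited factors. Of the bins near lost bins, 356 (5.28%) fell below 0.67 of their WT value, against 93 (0.181%) near held bins only and 0.441% of all autosomal bins under the floor.

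At matched WT levels the K36M median was lower near lost bins than near held bins in each class. The choice of lost bins for low K36M values in part builds this in, and matching on WT does not remove it. Among bins with 30 to 40 scaled reads in WT, the K36M median was 32.7 near lost bins (interquartile range 25.7 to 40.7), 53.4 near held bins and 50.2 farther away. At 10 to 20 in WT the values were 26.3, 41.3 and 36. At under 5 they were 12.1 (interquartile range 7.67 to 19.5), 13.3 (8.26 to 21.8) and 18, so the gap was small. In this class the K36M level near held bins was also lower than farther away. Between 20 and 30 in WT, the median bin near lost bins went from 24.9 to 28.0, and the median bin near held bins from 24.7 to 47.2.

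**Figure D4:**
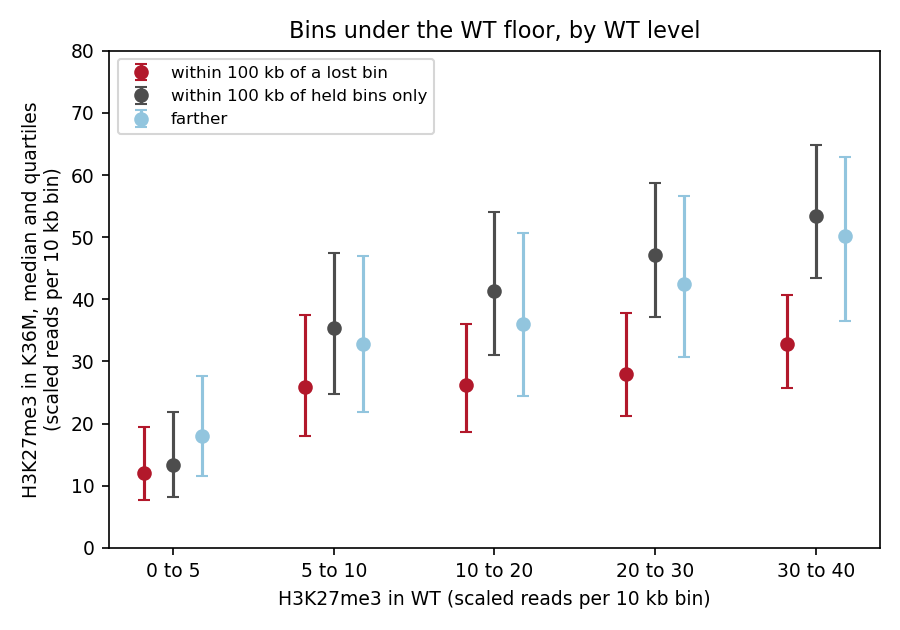
H3K27me3 in K36M (y axis, scaled reads per 10 kb bin, median with quartiles) for bins under the floor, by their H3K27me3 in WT (x axis, scaled reads per 10 kb bin) and by whether they lay within 100 kb of a lost bin (red), of held bins only (dark grey) or farther away (blue). Points near lost bins are lowest in every class, at 32.7 against 53.4 in the class of 30 to 40. Lost bins were chosen for low K36M values in the same library, which in part builds this in.

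The longest run was on chromosome 19 at 28090001 to 28190000 (mm9, as are all positions here), 100 kb long. H3K27me3 was 66.7 ± 17.5 scaled reads per bin in WT (SD over 10 bins) and 33.4 ± 10.0 in K36M, 2.00-fold lower (1.88 to 2.13). H3K36me2 went from 107 to 5.91, 18-fold lower. Within 100 kb on either side, WT chromatin was rich in H3K36me2, at 306 scaled reads per bin. There mean H3K27me3 rose from 14.7 to 26.6, so with the deposited factors the run and the mean of its borders moved in opposite directions. Not every border bin rose. On the side of higher positions, each bin from 60 to 100 kb from the run centre fell, as from 51.2 to 34.8 at 60 kb. Scaled to library totals, the run and the border mean both fell, to 0.197 and 0.712 of WT. The borders of every run named here were lower in K36M on that scale (0.204 to 0.712 of WT).

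The next in length was on chromosome 13 at 108010001 to 108100000, with H3K27me3 of 85.0 ± 13.1 in WT (SD over 9 bins) and 45.5 ± 4.28 in K36M, 1.87-fold lower (1.76 to 1.98). Its borders went from 40.2 to 50.0. On chromosome 6 at 98090001 to 98170000, H3K27me3 went from 68.9 ± 14.7 (SD over 8 bins) to 26.8 ± 7.25, 2.57-fold lower (2.37 to 2.78). H3K36me2 in K36M was 4.49 scaled reads per bin in that run, and H3K27me3 at its borders also fell, from 36.4 to 26.4. The run on chromosome 12 between 110510001 and 110590000 was 1.92-fold lower, and the one on chromosome 9 between 32130001 and 32200000 was 1.86-fold lower. A pair on chromosome 18, starting at 14550001 and 68750001 and ending at 14620000 and 68810000, was 1.83-fold and 2.12-fold lower. H3K36me2 in these 4 runs fell from between 60.6 and 128 scaled reads per bin to between 5.68 and 5.93.

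Among runs of at least 3 bins, the deepest fall was on chromosome 2 at 137810001 to 137850000. H3K27me3 went from 56.2 ± 7.11 scaled reads per bin in WT (SD over 4 bins) to 16.2 ± 2.58 in K36M, 3.46-fold lower (3.01 to 4.00). No other strong bin lay within 100 kb, and the bins there went from 15.0 to 18.7, so the peak was gone in K36M. H3K36me2 in the run went from 100.5 to 5.77. On chromosome 15 at 56020001 to 56060000, H3K27me3 went from 55.9 ± 13.6 (SD over 4 bins) to 16.4 ± 2.19, 3.40-fold lower (2.96 to 3.92). All 4 strong bins within 100 kb of that run were lost too. Next came a run on chromosome 17, 67780001 to 67810000, that was 2.83-fold lower. A run on chromosome 13, 14950001 to 14990000, was 2.82-fold lower. In a run on chromosome 10, 68380001 to 68430000, the fall was 2.55-fold. Over all 82 runs the fall ranged from 1.58-fold to 3.46-fold, with a median of 1.85-fold.

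**Figure D5:**
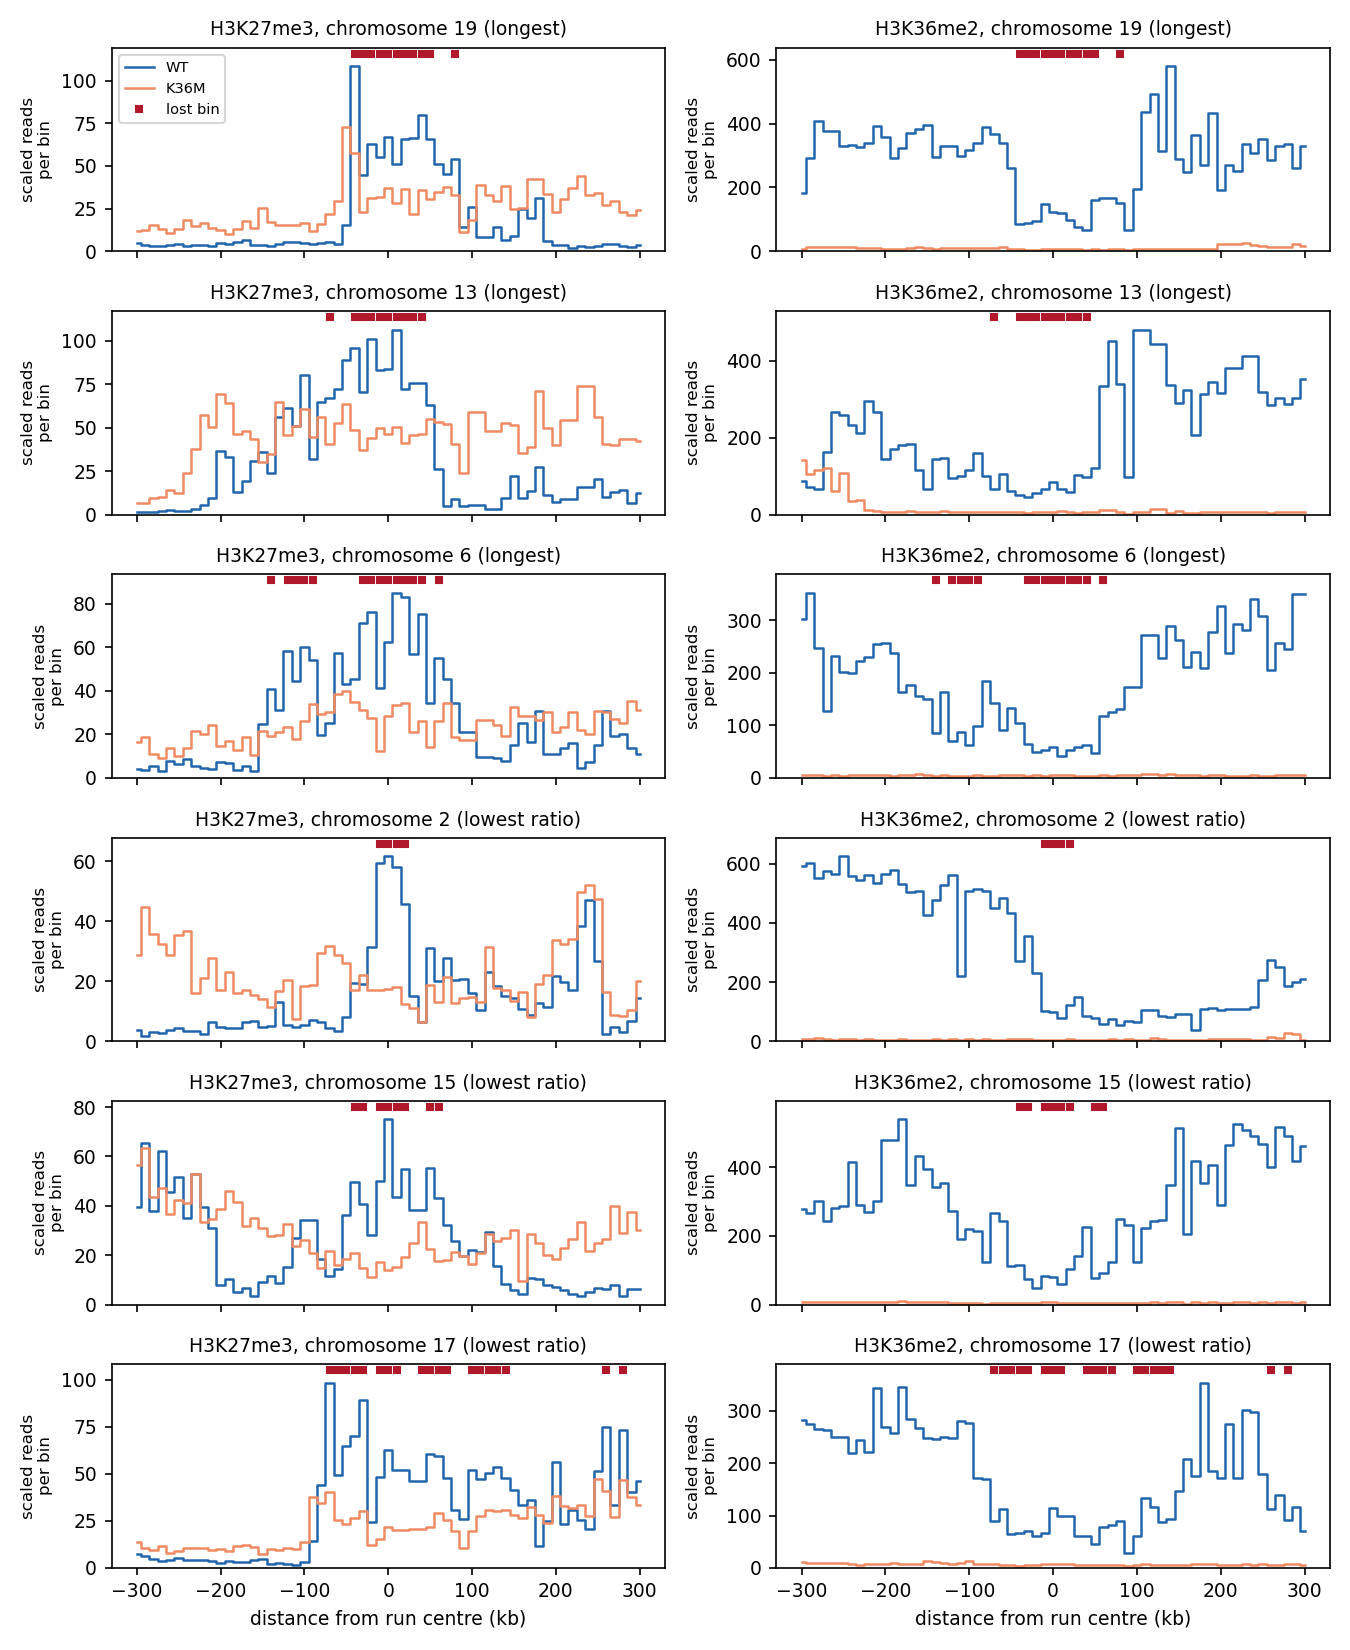
H3K27me3 (left) and H3K36me2 (right) in scaled reads per 10 kb bin (y axes) by distance from the run centre in kb (x axes) at the 3 longest runs and the 3 runs with the lowest ratio; blue is WT, orange is K36M, and red squares mark lost bins. The WT H3K27me3 peaks lie where WT H3K36me2 is low. On chromosome 2 the run is at the edge of a wider low stretch (100.5 in the run, 54.1 at 80 kb). In K36M H3K36me2 is low at each run and across most of each window.

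Some of these runs belonged to larger groups, which were chosen after their values were seen. On chromosome 13, 20 lost bins lay between 14840001 and 15250000, over 410 kb. They averaged 58.0 scaled reads of H3K27me3 in WT and 25.5 in K36M, 2.28-fold lower (2.16 to 2.40), and their H3K36me2 from 125 to 5.84. This stretch also held the pair of runs with the most WT H3K36me2, at 15130001 to 15160000 (159 scaled reads per bin) and 15050001 to 15090000 (150). In those runs H3K36me2 was 22.7-fold and 25.7-fold lower in K36M. The other runs high in WT H3K36me2 were on chromosome 15 at 41180001 to 41230000, with 144 scaled reads per bin, and on chromosome 18 at 68830001 to 68860000, with 141. On chromosome 17, 17 lost bins lay between 67720001 and 67940000, and H3K27me3 there went from 58.8 to 25.8, 2.28-fold lower (2.15 to 2.41).

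One long run kept much of its H3K36me2. On chromosome 11 at 96110001 to 96170000, H3K27me3 went from 167 ± 21.8 scaled reads per bin in WT (SD over 6 bins) to 85.7 ± 7.10 in K36M, 1.95-fold lower (1.85 to 2.05). H3K36me2 went from 39.1 to 20.0, 1.95-fold lower (1.74 to 2.19). The WT level of H3K36me2 was low among the 82 runs of at least 3 bins, which ran from 33.5 to 159 with a median of 70.8. Its K36M level was above those of the other 81 runs of at least 3 bins, which lay between 4.19 and 12.0 with a median of 5.77. The neighbouring 100 kb on each side held 18 strong bins and no lost bin, and went from 125 to 104. A pair of bins in this run came next after the highest lost bin in WT H3K27me3, with 194 and 184 scaled reads.

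A fall of H3K36me2 of at least 2-fold was seen in 1113 of 1119 lost bins (99.5%, against 93.4% of autosomal bins), and 3 of the other 6 were in this run. A pair of the others was adjacent on chromosome 6 at 49150001 to 49170000, with H3K36me2 going from 57.2 to 42.0 and from 30.5 to 20.2. The last was on chromosome 15 at 77410001 to 77420000, with 85.9 and 56.0. These bins were named after their values were seen.

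The lost bin with the most H3K27me3 stood apart in all 4 libraries. On chromosome 17 at 39980001 to 39990000, H3K27me3 was 304 scaled reads in WT and 146 in K36M, 2.08-fold lower (1.89 to 2.29). H3K36me2 was 413 and 83.3, the highest values of any lost bin in each line. The number of genomic copies behind this bin was not tested. The fourth in WT H3K27me3, on chromosome 19 at 45210001 to 45220000, went from 182 to 122, with a ratio of 0.6665 that only just met the rule.

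Lost bins were found on all 19 autosomes, in unequal shares of the strong bins. Chromosome 6 had the highest share with 9.20% (7.47 to 11.2), followed by chromosome 17 with 8.89% (7.08 to 11). The lowest was 2.94% (1.75 to 4.60) for chromosome 16. Chromosomes 14 and 8 came next with 3.03% (2.11 to 4.21) and 3.39% (2.40 to 4.64). The intervals of the first pair do not overlap those of the last 3, but neighbouring bins are not independent and the intervals are too narrow for that reason. Chromosomes 2 and 1 held the most lost bins, 109 and 106. The median WT H3K27me3 of lost bins ran from 51.3 scaled reads per bin on chromosome 3 to 78.9 on chromosome 11, and the K36M median from 30.4 to 45.7 on the same chromosomes. The median WT H3K36me2 of lost bins ran from 45.2 on chromosome 7 to 108 on chromosome 15, whereas the K36M medians were confined to 4.45 to 6.40.

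The 224 lost bins with a ratio under 0.5 differed from the other 895 in both marks in WT. Their median WT H3K36me2 was 75.0 scaled reads per bin, against 64.2, and their median WT H3K27me3 was 57.6, against 67.1. Among lost bins in general, WT H3K36me2 was higher where WT H3K27me3 was lower, with medians of 75.0 at 40 to 50 scaled reads of H3K27me3 and 53.7 at 120 and above, so the levels of both marks cannot be told apart here. The rank correlation of the ratio with WT H3K36me2 was negative on 15 of 19 autosomes (-0.42 to 0.11).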

How the data were processed

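H3K36me2 and H3K27me3 chromatin immunoprecipitation (ChIP-Rx) was analysed in 1 WT and 1 K36M library per mark. The deposited values are a signal per genomic interval, scaled by the authors with Drosophila chromatin per the labels. That chromatin amounted to 5% of the mouse chromatin, per the labels' protocols. Another label gives equal parts of mouse and fly cells, and the labels do not settle this. Bowtie 1.0.0, mm9 and dm6 are named in the submitters' processing notes. Not given in the sources used here were the read counting, the handling of duplicates, any filters and the scaling formula. All values were whole multiples (within 0.01 read) of 1 step per library, 0.636 and 0.078 for H3K36me2 and 0.109 and 0.295 for H3K27me3 (WT, K36M), so reads were recovered by division.

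The rule was applied to autosomal 10 kb intervals, and positions are 1-based. Lost bins were compared with held bins by medians, ratios of sums and exact (Clopper-Pearson) 95% intervals. These were from recovered reads for ratios and from counts of bins for shares. Reads without molecular identifiers are not independent, and bins of 1 library are not replicates. The named regions are the 8 longest runs (ties, as among the 5 runs of 6 bins, were broken by the lower H3K27me3 ratio), the 6 runs of at least 3 bins with the lowest ratio, the 4 bins highest in WT H3K27me3, the 4 runs of at least 3 bins highest in WT H3K36me2, and 3 bins on each side of each threshold. Others are marked as chosen after their values were seen. Members and lists were chosen with earlier results of these data known. No mouse genome or annotation was used here, so regions carry no gene names or sequences, and the gene families planned for counting were not applied. Titles of the inputs name H3.3 and their genotypes H3.1, and inputs were not analysed here. Scripts were tested on simulated data. Scipy 1.17.1 gave the intervals, matplotlib 3.10.9 the figures and pandas 2.3.3 with numpy 2.4.6 the rest, under Python 3.11.15.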

Additional observations from a re-analysis of the deposited data

How the results depend on the processing

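Of 73 alternative values for 8 results, 40 stayed within set limits, 32 moved and 1 reversed. The limits were counting error, or 1.5 times a count. For medians of H3K36me2 and their ratios, the counting error was that of a single bin, so these limits are wide. For lost over held they were 0.700 to 1.21 in WT and 0.655 to 1.27 in K36M. The WT ratio, 0.921, counted as staying at 1.04 (cutoff 0.5) and 1.02 (counting interval), although it passed 1. The tally therefore does not show that these medians are stable. Means without the bins most extreme in H3K36me2 were added after seeing the data. No paired analysis was possible because each mark had 1 library per line, and for the same reason no replicate could be left out.

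The count of lost bins was 224 with a cutoff of 0.5, 652 with a floor of 60, 377 with the counting interval below 0.67, 2212 after background subtraction (5th percentile of each library) and 17694 with library totals. The share of strong bins lost was 1.17%, 8.0%, 1.98%, 12.4% and 92.7% under these settings, 4.94% with a floor of 30 and 5.38% with X added. Runs numbered 152, 488, 252 and 1368 under the first 4. How many bins count as lost therefore rests on the deposited factors and the cutoffs.

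The ratio of summed H3K36me2 in lost bins, 0.0775, was 0.0723 (cutoff 0.5), 0.0694 (floor 30), 0.0893 (floor 60), 0.0750 (counting interval), 0.0572 (background subtraction), 0.0760 (runs of at least 3 bins) and 0.725 (library totals). After background subtraction the WT median in lost bins was 43.2 scaled reads. With means, lost over held H3K36me2 was 0.487 in WT and 0.568 in K36M. Without extreme bins these were 0.880 and 0.913, so a few held bins set the former.

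The H3K27me3 ratio within 100 kb of lost bins, 1.68, was 1.31 (cutoff 0.5), 1.93 (floor 30), 1.37 (floor 60), 1.49 (counting interval), 1.5 (background subtraction) and 1.21 (within 30 kb). With library totals it reversed to 0.664. The alternative values for adding 20 kb intervals all stayed within those limits.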

Other observations

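The X chromosome, which the rule leaves out, had few bins of this kind. Of its 1868 bins with at least 40 scaled reads of H3K27me3 in WT, 7 fell below 0.67 of WT in K36M (0.375%, exact 95% interval 0.151 to 0.771), against 5.87% on the autosomes. The median of these 7 bins went from 63.7 to 41.6 scaled reads of H3K27me3 and from 49.6 to 6.16 of H3K36me2. In the other strong bins of X, median H3K36me2 was 68.7 in WT and 6.24 in K36M. With 1 library per line the difference between X and the autosomes was not tested.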
